A study of Mus musculus with 8 samples.

Results

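The kinesins are motor proteins that walk along, or take apart, microtubules. The set described here comprised the rows of the count table whose mouse symbol begins with Kif followed by a digit, with at least 10 reads in 3 or more libraries. Of 38 such rows 30 met that count, among 27179 genes in the table, and 28 of them were tested for an effect of diet. They were sorted by textbook role into 11 mitotic kinesins, 12 transport kinesins and 7 kinesins of the cilium, of signalling or of microtubule regulation. Every member had at least 10 reads in libraries of both diets, and 24 had them in all 8 libraries.

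RNA came from MLL-AF9 acute myeloid leukaemia cells, driven by a fusion of the methyltransferase MLL with AF9, sorted alive by their green fluorescent protein (GFP) from crushed bones. The 3 BCAA-free libraries came from mice fed no branched-chain amino acids (BCAA: valine, leucine, isoleucine), and the 5 standard-diet libraries from mice given a complete amino acid diet. Recipients in both groups were male, 8 to 10 weeks old and labelled wild type, received the leukaemia cells by vein without conditioning, and were killed at the point of greatest response to 5+3 chemotherapy. This regimen gives 5 daily doses of cytarabine (100 mg/kg), the first 3 joined by doxorubicin (3 mg/kg), and no library without chemotherapy was analysed here. The sample names give BCAA alone; the design text of the series names the diet BCAA-free. The leukaemia was expanded in culture from 1 terminally ill mouse, carrying luciferase under the beta-actin promoter and GFP under what the labels call the ubiquitin transporter, so the libraries are separate recipients of the same leukaemia, and the mouse strain is not given in the sources used here.

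Kinesins share a motor domain that splits ATP and grips the microtubule, joined to a tail that binds cargo or other motors. In dividing cells a group of them builds the spindle, moves chromosomes and completes cytokinesis, and their transcripts peak late in the cell cycle. The transport kinesins carry mitochondria, endosomes, lysosomes and other cargo through interphase cells. Kif11, the motor that slides spindle poles apart, is the target of spindle inhibitors studied in blood cancers.

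The promoters of the mitotic members are shown because many genes of this class share the cell cycle genes homology region (CHR), to which the MuvB complexes bind that hold late cell cycle genes silent in resting cells and switch them on before mitosis. RefSeq promoter windows (GRCm38.p6), from 250 bases before to 50 after each start, were found for 24 of the 30 members. On either strand the letters TTTGAA of the CHR stood in the windows of 9 of 10 mitotic members, 1 of 9 transport members (Kif1a) and 0 of 5 of the others, against 17.9% of all 32851 windows. The CCAAT box (CCAAT) stood in 6 of 10, 3 of 9 and 1 of 5, against 37.4% of all windows, and an E2F site (GCGGGAA) in 0 of 10, 0 of 9 and 1 of 5 (Kif2a), against 4.6%. In the stretches below, from 130 bases before to 30 after the start, capitals mark these letters (TTCAAA or ATTGG where they lie on the other strand), no CHR overlapped a CCAAT box, and no E2F site occurred. A match of letters describes the sequence and is not evidence of binding. The 7 mitotic genes shown each hold the CHR letters in this stretch, and Kif1b, a transport kinesin that fell with diet, holds CCAAT letters only.
Kif11: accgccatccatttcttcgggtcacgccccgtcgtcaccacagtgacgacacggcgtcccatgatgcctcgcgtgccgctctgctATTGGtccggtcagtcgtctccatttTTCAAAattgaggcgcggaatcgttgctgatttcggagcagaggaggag
Kif15: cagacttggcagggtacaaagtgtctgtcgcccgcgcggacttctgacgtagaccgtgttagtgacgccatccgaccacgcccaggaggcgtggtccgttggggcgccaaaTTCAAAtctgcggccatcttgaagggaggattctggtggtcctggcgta
Kif23: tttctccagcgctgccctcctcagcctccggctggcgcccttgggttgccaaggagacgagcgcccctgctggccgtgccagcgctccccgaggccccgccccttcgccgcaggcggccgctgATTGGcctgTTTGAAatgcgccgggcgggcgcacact
Kif18b: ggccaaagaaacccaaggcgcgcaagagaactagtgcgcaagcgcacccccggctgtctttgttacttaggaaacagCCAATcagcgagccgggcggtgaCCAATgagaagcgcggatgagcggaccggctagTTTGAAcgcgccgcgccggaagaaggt
Kif20b: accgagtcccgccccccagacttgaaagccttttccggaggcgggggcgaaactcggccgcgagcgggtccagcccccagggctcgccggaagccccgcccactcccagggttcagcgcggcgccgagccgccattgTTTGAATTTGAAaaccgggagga
Kif4: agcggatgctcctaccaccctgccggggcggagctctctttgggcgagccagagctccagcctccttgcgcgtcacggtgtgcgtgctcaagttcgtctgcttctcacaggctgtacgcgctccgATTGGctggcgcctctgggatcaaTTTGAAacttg
Kif22: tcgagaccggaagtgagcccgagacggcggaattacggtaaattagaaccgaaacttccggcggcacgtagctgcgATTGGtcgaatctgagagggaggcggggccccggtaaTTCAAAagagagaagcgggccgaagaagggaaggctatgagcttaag
Kif1b: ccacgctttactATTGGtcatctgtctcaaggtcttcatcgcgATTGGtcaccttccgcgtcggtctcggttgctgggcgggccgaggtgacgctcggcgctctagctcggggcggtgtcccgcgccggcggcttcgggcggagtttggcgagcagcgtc
On the plus strand lie Kif11 at chr19:37376252-37376411, Kif15 at chr9:122950951-122951110, Kif20b at chr19:34922228-34922387 and Kif4 at chrX:100625935-100626094. On the minus strand lie Kif23 at chr9:61946770-61946929, Kif18b at chr11:102925095-102925254, Kif22 at chr7:127042391-127042550 and Kif1b at chr4:149307704-149307863. Counting the start as base 1, the CHR letters began at base -19 in both Kif11 and Kif15, at -17 in Kif22, at 3 in Kif23, at 4 in Kif18b, at 8 and 14 in Kif20b, and at 20 in Kif4. Kif15 and Kif22 held them a further time upstream of the printed stretch, at -234 and -215. Kif14 and Kif2c held them only farther from the start, at -228 and -103, and Kif18a, the remaining mitotic member with a window, held none.

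The comparison asked whether the BCAA-free diet, set against the standard diet, alters gene expression in leukaemia cells exposed to chemotherapy; here it is read for kinesins. The mitotic motors Kif15 and Kif11 fell about 1.5-fold, as did, by 1.67-fold, the transport motor Kif1b. No kinesin rose in edgeR (2 had an unadjusted p under 0.05 in that direction) or in DESeq2. These 3 calls among 28 tested members compare with a background of 0.539% of all 13364 genes called lower, and 0.217% called higher, in edgeR's quasi-likelihood test at an adjusted p under 0.05. Levels are given as CPM, counts scaled to a common library size after trimmed-mean (TMM) scaling, and a log2 fold change is the BCAA-free diet over the standard diet. In bulk RNA, fewer cells in mitosis and less transcript per cell cannot be told apart.

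Kif15, a kinesin-12 that can keep the spindle bipolar alongside Kif11, stood at 213, 194 and 188 CPM in the BCAA-free libraries, against 282.5, 321, 306, 289.8 and 341 CPM in the standard-diet libraries. The highest BCAA-free library lay well below the lowest standard-diet library. Its mean was 198 ± 12.9 CPM on the BCAA-free diet (SD, n = 3) and 308 ± 23.75 CPM on the standard diet (SD, n = 5), a 1.55-fold fall (log2 fold change -0.64, SE 0.10, edgeR adjusted p = 0.00747). Kif15 (gene 209737) spans chromosome 9 from 122951081 to 123018733 in GRCm38.

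Kif11, the kinesin-5 that pushes spindle poles apart, stood at 302, 259 and 279 CPM on the BCAA-free diet, against 404, 435, 424, 378 and 466.1 CPM on the standard diet. The groups were again fully apart. The fall was 1.51-fold (log2 fold change -0.59, SE 0.10, edgeR adjusted p = 0.0135). Kif11 (gene 16551) spans chromosome 19 from 37376382 to 37421863. Both falls lost their call without BCAA-free replicate 2, where Kif15 had an adjusted p of 0.0568 (log2 fold change -0.63) and Kif11 of 0.0988 (-0.55), and kept it in the 7 other fits that each left out 1 library.

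The other mitotic kinesins mostly had smaller differences that did not pass. Over the 11 members the median log2 fold change was -0.39, with 10 negative values, against a median of 0.02 over all genes tested and 47.4% negative values. The BCAA-free libraries were all below the standard-diet libraries in 7 of the 11, against 4.68% of all genes, and 8 had an unadjusted p under 0.05 in that direction, against 7.26% of all genes. These counts describe the list and carry no test of their own.

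The closing stages of division are served by Kif23, Kif14, Kif20a, Kif20b and Kif4. Kif23, the motor of the centralspindlin complex with Racgap1, was at 119, 104 and 119.8 CPM on the BCAA-free diet, against 153, 162, 148, 146 and 167 CPM on the standard diet. It lay fully below yet just missed the threshold (log2 fold change -0.44, SE 0.10, edgeR adjusted p = 0.0566). Kif14, which works with citron kinase in cytokinesis, was at 82.7, 82.9 and 71.35 CPM on the BCAA-free diet, against 103, 94.6, 120.1, 107 and 113 CPM on the standard diet (log2 fold change -0.45, SE 0.11, adjusted p = 0.0759 in edgeR). DESeq2, with a background of 1.9% of genes called lower, called both (adjusted p = 0.00289 for Kif23 and 0.0136 for Kif14), together with Kif24 and the 3 edgeR calls. With no filter on low counts edgeR called both as well (adjusted p = 0.0348 and 0.0411), 5 members in all, with a background of 0.858%.

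Kif20a, which brings Aurora B to the central spindle, showed no difference beyond its error. It stood at 135, 119 and 142 CPM on the BCAA-free diet, against 137, 101, 141, 125 and 147 CPM on the standard diet. The groups overlapped throughout (log2 fold change 0.02, SE 0.12, edgeR adjusted p = 0.970), and the sign of this small value changed to -0.04 without BCAA-free replicate 3 and to -0.06 without standard-diet replicate 2. The gene overlaps Cdc23 over 4930 bases and Brd8 over 240 bases, and with no stated strand setting, reads of these neighbours may be included. Kif20b, its relative in cytokinesis, averaged 166 ± 8.53 CPM in BCAA-free libraries and 212 ± 28.95 CPM in standard-diet libraries (log2 fold change -0.36, edgeR adjusted p = 0.192; -0.06 with GC and length trends removed). Kif4, a chromokinesin that also shortens the central spindle with Prc1, averaged 78.7 ± 11.4 CPM in BCAA-free libraries and 103 ± 8.30 CPM in standard-diet libraries (-0.39, edgeR adjusted p = 0.145).

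**Figure D1:**
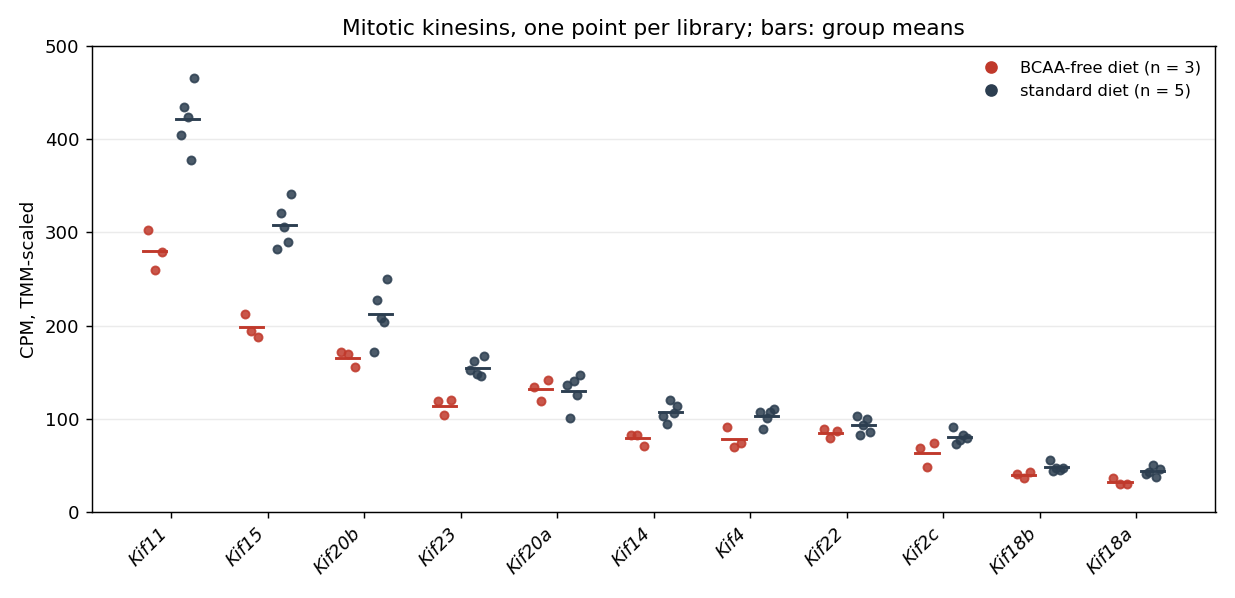
Levels of the 11 mitotic kinesins in CPM, 1 point per library, with BCAA-free libraries (n = 3) left of standard-diet libraries (n = 5) and bars at the group means. Kif11 and Kif15 have no overlap between the diets, whereas the points of Kif20a and Kif22 overlap.

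Motors that move or orient chromosomes had negative values without a call. Kif18a, which damps chromosome movement at the spindle equator, averaged 32.6 ± 3.77 CPM in BCAA-free libraries and 43.7 ± 4.72 CPM in standard-diet libraries (log2 fold change -0.42, SE 0.14, edgeR adjusted p = 0.186; -0.14 with GC and length trends removed). It overlaps Mettl15 over 593 bases, and reads of that gene may be included. Kif2c, the microtubule depolymerase that corrects faulty attachments, averaged 63.7 ± 13.8 CPM in BCAA-free libraries and 80.8 ± 6.88 CPM in standard-diet libraries, with overlapping groups. BCAA-free replicate 2 was its lowest library at 48.3 CPM (log2 fold change -0.34, SE 0.14, edgeR adjusted p = 0.294). Kif18b, which limits astral microtubules, had a log2 fold change of -0.25 (SE 0.13) and an edgeR adjusted p of 0.405, and Kif22, the chromokinesin that pushes chromosome arms outward, -0.13 (SE 0.11) and 0.638. Kif2b, a mitotic kinesin below the count limit, had 0 reads in every library.

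Among the transport kinesins Kif1b stood alone in passing. It carries mitochondria and vesicle precursors, and stood at 90.3, 98.2 and 97.5 CPM on the BCAA-free diet, against 170.5, 191, 158, 149.7 and 129 CPM on the standard diet. Its BCAA-free libraries lay close together and below all standard-diet libraries, of which replicate 5 was the lowest. The mean was 95.3 ± 4.39 CPM on the BCAA-free diet (SD, n = 3) and 159.5 ± 23.2 CPM on the standard diet (SD, n = 5; log2 fold change -0.74, SE 0.12, edgeR adjusted p = 0.00847), the largest called difference of the set. Kif1b (gene 16561) spans chromosome 4 from 149176319 to 149307773. It lost the call without BCAA-free replicate 1 (edgeR adjusted p = 0.0563) and kept it in the 7 other fits that each left out 1 library.

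No other transport kinesin moved with diet by the test. The median log2 fold change of the 11 tested was 0.0, with 5 negative and 6 positive values. Kif5b, the conventional kinesin heavy chain that hauls mitochondria and lysosomes, averaged 376 ± 29.7 CPM in BCAA-free libraries and 429 ± 52.6 CPM in standard-diet libraries (log2 fold change -0.19, SE 0.11, edgeR adjusted p = 0.490). Kif13a, a motor of recycling endosomes, averaged 103.5 ± 14.1 CPM in BCAA-free libraries and 114 ± 18.1 CPM in standard-diet libraries (-0.14, edgeR adjusted p = 0.691). Kif16b, which binds early endosomes, had a log2 fold change of -0.25 (SE 0.13, edgeR adjusted p = 0.432), and Kif13b one of 0.14 (SE 0.16, adjusted p = 0.753). The groups overlapped in each of these.

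The kinesin-2 subunits, which pair to carry cargo in cilia and cytoplasm, had no call. Kif3a was at 16.3, 21.7 and 16.1 CPM on the BCAA-free diet, against 11.2, 10.4, 11.4, 14.8 and 17.1 CPM on the standard diet. Standard-diet replicate 5 lay within the range of the BCAA-free libraries, and the difference did not pass (log2 fold change 0.48, SE 0.20, edgeR adjusted p = 0.317). Part of Kif3a, 1613 bases, is shared with the long non-coding gene A430108G06Rik. Its partner Kif3b averaged 44.2 ± 5.54 CPM in BCAA-free libraries and 38.2 ± 3.25 CPM in standard-diet libraries (log2 fold change 0.21, SE 0.13, edgeR adjusted p = 0.520), and Kif1c, a motor of Golgi-to-reticulum traffic, had a log2 fold change of 0.47 (SE 0.29, adjusted p = 0.510). The further kinesin-2 motors gave no common direction: Kif17 had a log2 fold change of 0.05 (SE 0.24, edgeR adjusted p = 0.947), and Kif3c, too low to be tested, averaged 0.210 CPM in BCAA-free libraries and 0.473 CPM in standard-diet libraries.

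**Figure D2:**
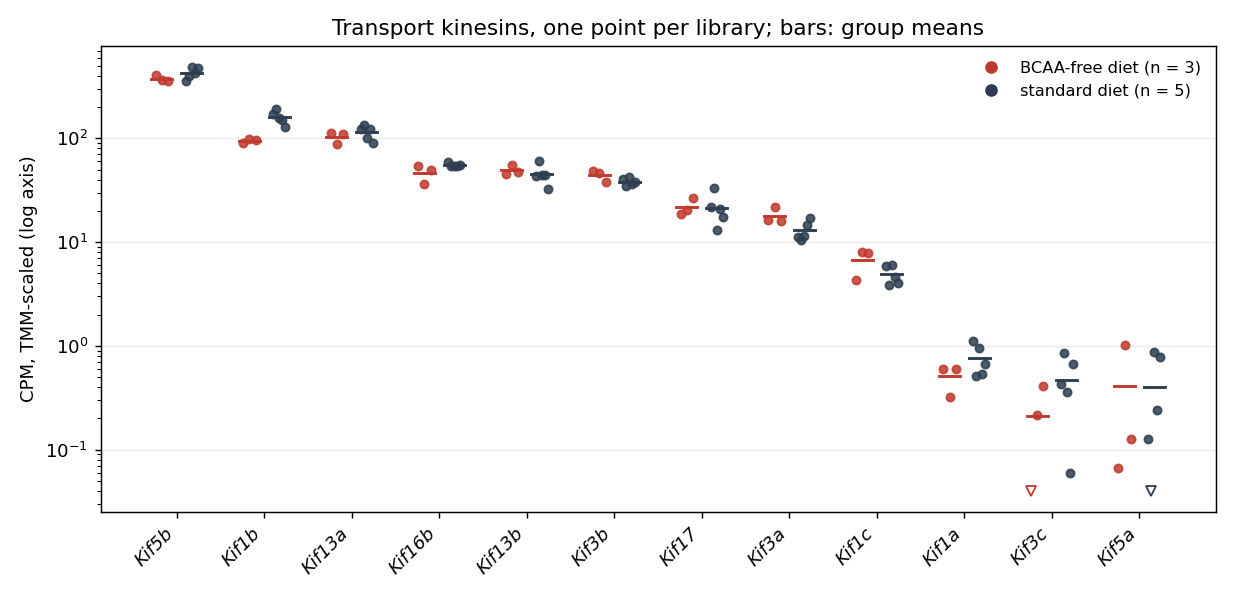
Levels of the 12 transport kinesins in CPM on a log axis, 1 point per library, with BCAA-free libraries (n = 3) left of standard-diet libraries (n = 5), bars at the group means and open triangles for libraries with 0 reads. Kif1b is the member whose diets are fully apart, and Kif1a, Kif3c and Kif5a lie near the limit of detection.

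Kif1a, Kif3c, Kif5a, Kif7 and Kif21a were near the count limit. Just inside it, Kif5a had 1, 19 and 4 reads in the BCAA-free libraries, against 5, 0, 22, 4 and 13 in the standard-diet libraries, and just outside it Kif5c had 7, 5 and 1 reads, against 2, 0, 6, 0 and 5. Kif3c and Kif21a passed the count of the set but not edgeR's own filter and were not tested. At this depth a difference was not detectable for Kif1a and Kif5a.

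In the last class, Kif24, a centriolar kinesin that blocks the outgrowth of cilia, was fully lower. It stood at 39.1, 33.3 and 32.9 CPM on the BCAA-free diet, against 52.7, 49.98, 43.7, 41.7 and 49.65 CPM on the standard diet (log2 fold change -0.44, SE 0.13, edgeR adjusted p = 0.146), and DESeq2 called it lower (adjusted p = 0.0446). Kif7, a regulator of Hedgehog signalling at the cilium, had 24, 12 and 21 reads on the BCAA-free diet, against 14, 2, 5, 8 and 4 on the standard diet. Scaled to library size its BCAA-free libraries, at 0.650 to 1.61 CPM, lay above the standard-diet libraries, at 0.1135 to 0.480 CPM, a separation that 4.17% of all genes show. Kif3a and Kif7 were the 2 members with an unadjusted p under 0.05 and a higher value, against 6.21% of all genes. Kif7 did not pass (log2 fold change 1.77, SE 0.77, edgeR adjusted p = 0.328). Kif2a, a depolymerase of interphase and mitosis, averaged 111 ± 14.9 CPM in BCAA-free libraries and 117 ± 13.3 CPM in standard-diet libraries (-0.08, edgeR adjusted p = 0.833). It overlaps Dimt1 over 2330 bases, and reads of that gene may be included. Kif21b, which tunes microtubule growth in lymphocytes and neurons, had a log2 fold change of 0.09 (SE 0.15, edgeR adjusted p = 0.844). The medians of this class and of all 28 tested kinesins were 0.05 and -0.17.

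**Figure D3:**
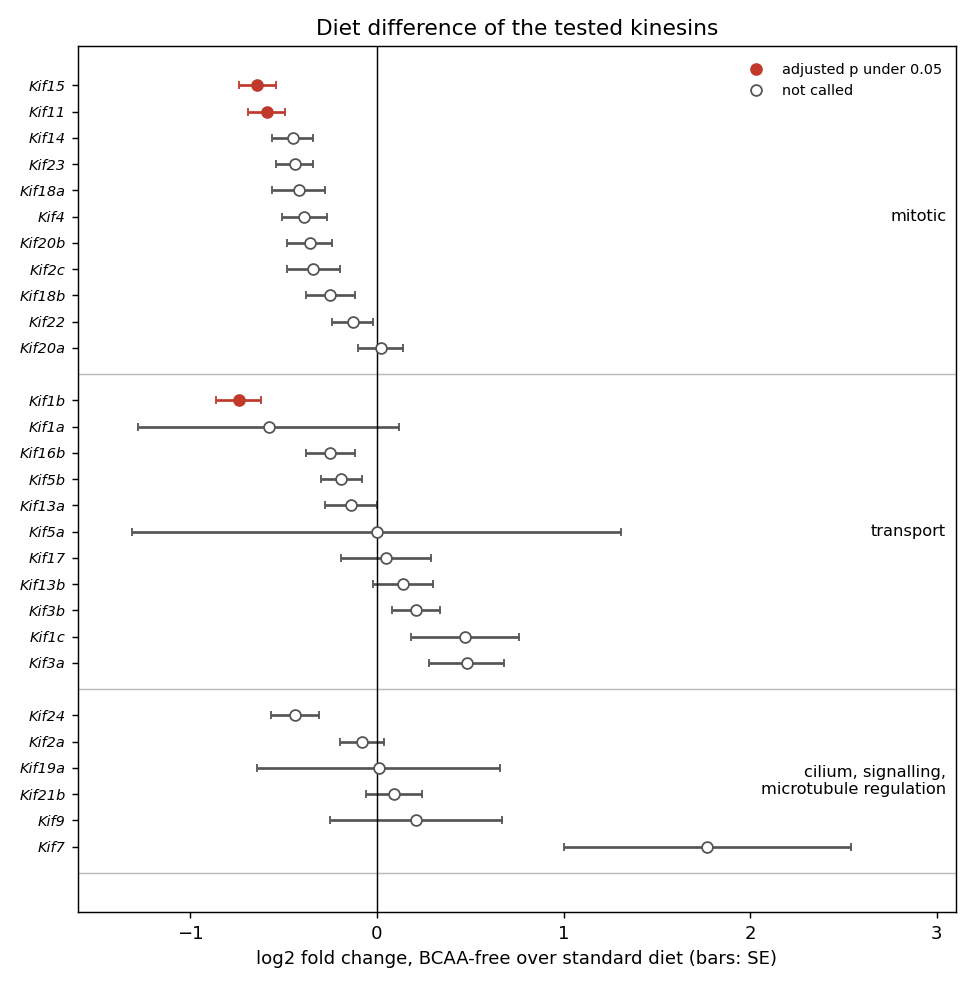
Log2 fold changes, BCAA-free over standard diet, of the 28 tested kinesins by class, with bars of 1 SE. Filled red points are the 3 members with an edgeR adjusted p under 0.05. Mitotic members other than Kif20a lie left of 0, and transport members lie on both sides.

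Adjusted for exon length, Kif11 headed the set on the standard diet and Kif5b on the BCAA-free diet. Kif5b was at 62.3 ± 4.92 CPM per kilobase of exon on the BCAA-free diet and 71.1 ± 8.73 on the standard diet, and Kif11 at 58.1 ± 4.46 CPM per kilobase on the BCAA-free diet and 87.4 ± 6.88 on the standard diet. Within a diet the means of Kif5b and Kif11 differed by less than the sum of their SDs on the BCAA-free diet and by slightly more on the standard diet. Kif15 came next in both, at 40.8 ± 2.65 CPM per kilobase on the BCAA-free diet and 63.4 ± 4.89 on the standard diet. Kif22 followed on the BCAA-free diet at 40.2 ± 2.21 CPM per kilobase, a level within the SD of that of Kif15, whereas on the standard diet it was at 44.0 ± 4.14.

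The mitotic motors, with the called Kif11 and Kif15 among them, made up a smaller share of all kinesin reads. They took 56.7%, 54.9% and 57.0% of the reads of the 30 members in the BCAA-free libraries, against 60.5%, 58.6%, 59.5%, 59.8% and 63.0% in the standard-diet libraries. The ranges did not overlap. Divided by exon length, the shares were 66.6 ± 1.21% on the BCAA-free diet and 70.5 ± 1.24% on the standard diet (SD, n = 3 and 5), also without overlap. All 30 members together held 0.221% to 0.239% of a library's counts on the BCAA-free diet and 0.266% to 0.293% on the standard diet. As scores over the members these values carry no test. Kif11 and Kif15 are the most abundant mitotic members, so the smaller share is not separate from their falls. They averaged 280 and 198 CPM of the summed 1269 CPM of mitotic kinesins on the BCAA-free diet. On the standard diet they averaged 421 and 308 CPM of 1703 CPM. Whether the share differs without these genes was not tested.

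**Figure D4:**
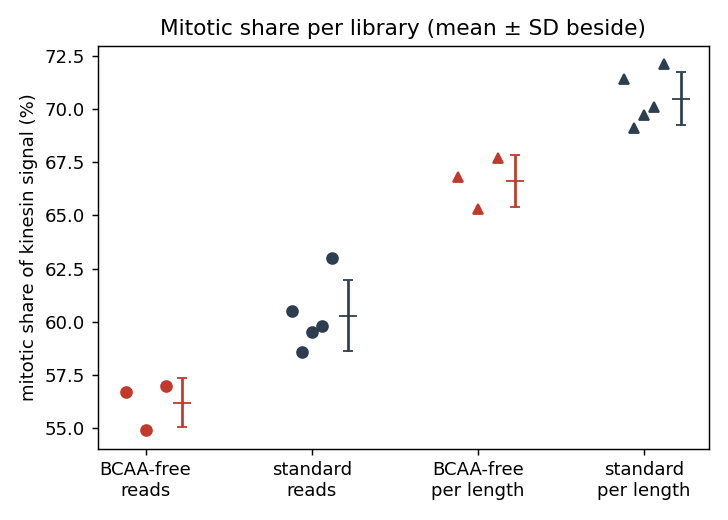
Share of the kinesin signal held by mitotic kinesins, in percent, 1 point per library with mean and SD beside, from reads (circles) and from reads divided by exon length (triangles), BCAA-free libraries left of standard-diet libraries. Both measures are lower in all 3 BCAA-free libraries; the axis does not start at 0.

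Set against a marker of cycling cells, the mitotic kinesins overlapped between diets. Their summed level was 1269 ± 78.4 CPM in BCAA-free libraries and 1703 ± 91.9 CPM in standard-diet libraries. Divided by the CPM of that marker, Mki67, it was 0.771, 0.697 and 0.709 in the BCAA-free libraries, against 0.679, 0.669, 0.732, 0.740 and 0.829 in the standard-diet libraries, which overlap. Mki67 itself was at 1749 ± 35.2 CPM in BCAA-free libraries and 2341 ± 129.6 CPM in standard-diet libraries, just short of a call in edgeR (log2 fold change -0.42, adjusted p = 0.0531). It was called lower in DESeq2 (adjusted p = 0.000213), in limma-voom (0.0341) and in edgeR with no filter on low counts (0.0385). Every other alternative, the single omissions among them, left it uncalled. With GC and length trends removed it was at -0.29 (edgeR adjusted p = 0.108).

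A list of 20 mitotic partners and regulators of these motors also held Top2a and Mki67 as genes of dividing cells. Of its transcripts 5 fell and none rose, against 0.539% and 0.217% of all genes. A negative log2 fold change was found in 19 of the 20, against 47.4% of all genes, and the median was -0.31, against 0.02. Top2a, the topoisomerase of dividing cells, fell 1.51-fold to 860 ± 21.7 CPM on the BCAA-free diet, against 1301 ± 55.4 CPM on the standard diet (edgeR adjusted p = 0.00708). Prc1, which bundles the central spindle and recruits Kif4, fell 1.45-fold to 119 ± 10.45 CPM, against 172 ± 17.3 CPM (adjusted p = 0.0374 in edgeR). Hmmr (log2 fold change -0.65), Nusap1 (-0.61) and Bub1 (-0.49), a spindle adaptor, a microtubule bundler and a checkpoint kinase, had edgeR adjusted p of 0.0182, 0.0281 and 0.0483. Tpx2, which loads Kif11 and Kif15 on spindle microtubules, had a log2 fold change of -0.24 (adjusted p = 0.318), and Racgap1, the partner of Kif23, -0.26 (0.320). The count of 5 was 0 without BCAA-free replicate 2, 1 without BCAA-free replicate 1 or standard-diet replicate 5, 3 when BCAA-free replicate 3 or standard-diet replicate 1, 3 or 4 was omitted, and 4 without standard-diet replicate 2. Bub1 lost its call in all 8 of these fits, Prc1 in 7 (adjusted p in edgeR up to 0.174, and 0.026 without standard-diet replicate 2), Top2a without BCAA-free replicate 2, and Hmmr and Nusap1 without either BCAA-free replicate 1 or 2 or standard-diet replicate 5.

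The kinesins that carry other names, the kinesin-7 Cenpe and the kinesin-14 Kifc genes, had no call among 4 tested. At an unadjusted p under 0.05, 1 was lower, against 7.26% of all genes. Cenpe, which tethers chromosomes at the kinetochore, was at 225, 248 and 252 CPM on the BCAA-free diet, against 289.7, 353, 295, 260 and 313 CPM on the standard diet (log2 fold change -0.32, SE 0.11, edgeR adjusted p = 0.207). Kifc1, which focuses spindle poles, had a log2 fold change of -0.14 (SE 0.16, adjusted p = 0.753), and its near-identical copy Kifc5b may share its reads.

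Genes around the transport kinesins showed no call. None of 18 tested cargo adaptors passed in edgeR, and 1 was higher at an unadjusted p under 0.05. Over all genes 6.21% were higher and 7.26% lower at that p. The median log2 fold change of the adaptors was 0.15, against 0.02 over all genes. Positive values numbered 14 and negative values 4, against 47.4% negative values over all genes. Madd, an adaptor of Kif1b in axons, averaged 74.2 ± 11.5 CPM in BCAA-free libraries and 55.6 ± 6.90 CPM in standard-diet libraries (log2 fold change 0.42, SE 0.13, edgeR adjusted p = 0.168), so that its value and that of Kif1b had opposite signs. Mapk8ip3, which links kinesin-1 to vesicles, had a log2 fold change of 0.25 (adjusted p = 0.411). Kifbp, which was chosen outside the naming rule because it binds and inhibits Kif1b and Kif15, was at 0.21 (SE 0.15, edgeR adjusted p = 0.571). The opposite motor, dynein with dynactin, had a median of 0.0 over 25 tested genes with none called (1 at an unadjusted p under 0.05), Dynlt3 (-0.50) and Dynll1 (0.35) coming nearest with adjusted p of 0.220 and 0.405. The tubulins, which form the tracks, had a median of -0.05 over 14 with none called (2 at an unadjusted p under 0.05), Tubb6 at 0.76 (0.315) and Tubb5 at -0.26 (0.343).

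Regulators of the CHR and of E2F sites had no call among 15 in edgeR, with a median of -0.14, against 0.02 over all genes. At an unadjusted p under 0.05, 3 were lower and 1 higher, against 7.26% and 6.21% of all genes. Foxm1, which activates late cell cycle genes with B-MYB and MuvB, averaged 90.2 ± 11.9 CPM in BCAA-free libraries and 114 ± 10.8 CPM in standard-diet libraries (log2 fold change -0.34, SE 0.12, edgeR adjusted p = 0.207). E2f4, a partner of the repressive DREAM complex, averaged 94.1 ± 11.5 CPM in BCAA-free libraries and 73.1 ± 8.31 CPM in standard-diet libraries (log2 fold change 0.36, SE 0.12, edgeR adjusted p = 0.192).

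The fall of Kif11, Kif15 and Kif1b was compared across single omissions of libraries. All 3 genes had negative log2 fold changes in every fit, between -0.65 and -0.55 for Kif11, -0.69 and -0.60 for Kif15, and -0.81 and -0.67 for Kif1b.

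**Figure D5:**
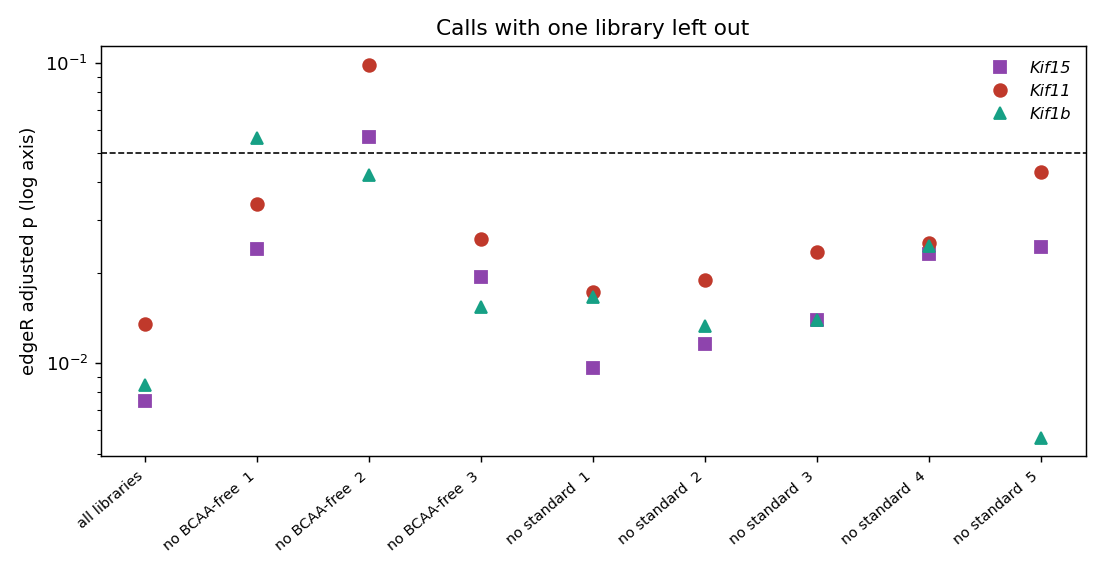
Adjusted p of Kif15, Kif11 and Kif1b in edgeR on a log axis, with all libraries and with each library left out in turn. The dashed line is the threshold of 0.05, which Kif11 and Kif15 exceed when BCAA-free replicate 2 is omitted and Kif1b when BCAA-free replicate 1 is.

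Over all genes the difference between the diets varied with base composition, and the source of this trend was not tested. The median log2 fold change ran from -0.14 in the GC quintile with the least GC (33.4% to 44.5% of exon bases) to 0.13 in the quintile with the most. Kif11 at 41.8% GC, Kif15 at 42.0%, Kif18a at 38.0% and Kif20b at 38.9% belong to the lowest quintile, as do Kif5b and Kif2a, and Kif1b at 47.9% lies in the second. With GC and length trends removed from each library, Kif11 had a log2 fold change of -0.41 (edgeR adjusted p = 0.0383), Kif15 of -0.46 (0.00939), Kif1b of -0.62 (0.0065) and Kif23 of -0.37 (0.045), all 4 called, while the background of lower calls was 1.05%. The same fit moved Kif20b to -0.06 (edgeR adjusted p = 0.815), Kif18a to -0.14 (0.665) and Kif16b to -0.15 (0.674), and turned Kif2a to 0.13 (0.495). The median over the mitotic members was then -0.33.

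The BCAA-free libraries held 14851240 to 30306697 counts and the standard-diet libraries 16588662 to 38966911 (two-sided exact permutation p = 0.839, the smallest possible being 0.0179). Leukaemia and myeloid markers were present throughout, with summed levels of 7462 to 8453 CPM on the BCAA-free diet and 9472 to 11760 CPM on the standard diet. All 10 had negative log2 fold changes, against 47.4% of all genes, with a median of -0.28, against 0.02. At an edgeR unadjusted p under 0.05 were 3 of them, against 7.26% of all genes in that direction. None was called, and Mpo (log2 fold change -0.50, edgeR adjusted p = 0.0605) and Cd33 (-0.43, 0.202) came nearest. Mpo made up most of the sum in every library, so the sum says little about the other markers of this list. Of 5 tested B cell markers Cd79b and Cd79a rose (log2 fold changes 1.34 and 3.12, edgeR adjusted p = 0.00852 and 0.0305), against 0.217% of all genes called higher. The list summed to 142.5 to 286 CPM on the BCAA-free diet and 101 to 349 CPM on the standard diet. All 5 markers were higher, with a median log2 fold change of 2.94 and 4 at an unadjusted p under 0.05, against 6.21% of all genes. Ighm (0.28, edgeR adjusted p = 0.875) made up most of the sum in every library. Cd163 of 8 macrophage markers and Cxcl12 of 4 tested stromal and endothelial markers rose too (1.67 and 2.18, edgeR adjusted p = 0.045 and 0.0374), those lists summing to 227 to 314 and 42.7 to 64.05 CPM on the BCAA-free diet, against 300.5 to 403 and 25.7 to 46.1 CPM on the standard diet. Of the 8 macrophage markers 6 were higher and 2 lower, each at an unadjusted p under 0.05, against 6.21% and 7.26% of all genes. Their median was 1.07. The 2 lower, Vcam1 (-0.49, edgeR adjusted p = 0.182) and Adgre1 (-0.63, 0.332), made up most of the sum. Of the T cell, erythroid, platelet and mature neutrophil markers none was called, with Cd8a (adjusted p = 0.061), Cd4 (0.254), Hba-a2 (0.147), Hbb-bs (0.358), Itga2b (0.405), Gp1ba (0.822), Retnlg (0.288) and Mmp8 (0.333) nearest. Every tested marker of these lists had a positive value (7 T cell, 5 erythroid, 2 platelet and 8 neutrophil), whereas 47.4% of all genes had a negative one. In that order the median log2 fold changes were 1.68, 1.46, 0.75 and 0.48. An edgeR unadjusted p under 0.05 was found for 3, 2, 0 and 2 of them, against 6.21% of all genes in that direction. The list sums were 6.11 to 38.0, 4.88 to 43.5, 3.95 to 8.18 and 1417 to 5806 CPM on the BCAA-free diet, against 3.86 to 10.4, 3.65 to 12.1, 2.34 to 4.66 and 722 to 5922 CPM on the standard diet. No marker was at 0 in all libraries, and the part of such cells in the kinesin differences was not tested.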

How the data were processed

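The authors deposited 1 table of raw counts per Entrez gene for 8 libraries, without normalization. Per the labels' protocols, polyadenylated RNA went into Kapa mRNA HyperPrep libraries with paired reads of 38 bp. The submitters' processing notes name mm10, Cell Ranger and featureCounts. Not given in the sources used here were an aligner, whether counting used strand, and how multiply mapped reads counted. Symbols and coordinates came from RefSeq (GRCm38.p6), which matched 25275 of 27179 identifiers, and exon lengths and GC from GENCODE M21.

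Genes were tested with edgeR 4.0.16 in R 4.3.3 (quasi-likelihood F test, robust dispersion, TMM scaling), after its default filter at a minimum count of 10 and a minimum total of 15. Diet was the single term over all 8 libraries, with Benjamini-Hochberg adjustment over 13364 genes at 0.05, and it was tested on simulated data. The SE is the log2 fold change over the square root of F. Alternatives used DESeq2 1.42.0, limma-voom 3.58.1, other scalings and filters, a replicate block and omission of each library. The removal of GC and length trends, and the joint omission of the deepest library of each diet, were chosen after seeing the data.

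The members, classes and lists were chosen with earlier results of these data known. Values were given for every mitotic member, for other members with an unadjusted p under 0.05, for the 6 most abundant transport members, and per list for up to 4 called genes or the 2 with the smallest p. Prc1, Tpx2, Racgap1, Kifbp, Kif17, Ighm, Vcam1, Adgre1 and further low-count or overlapping members were named after their values were seen. A marker gene of the lists is not reported here. The labels call the libraries biological replicates. No 2 libraries of a diet were repeats of one another, chi-square over its degrees of freedom being 20.3 to 66 for their counts.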

Additional observations from a re-analysis of the deposited data

How the results depend on the processing

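The calls rest on 3 and 5 libraries. Of the kinesins 3 were lower in edgeR, against 6 in DESeq2 and 5 with no filter on low counts, and between 1 and 3 when a library was left out. For mitotic kinesins the count of 2 became 4 in DESeq2 and 4 with no filter, and 0 to 2 when a library was left out. For transport kinesins the count of 1 became 0 without BCAA-free replicate 1, and was 0 to 1 over these fits. No kinesin was called higher under any alternative run. The other scalings, the filter of 10 reads in 3 libraries, limma-voom, the non-robust fit, the removal of GC and length trends and the joint omission of the deepest library of each diet kept Kif11, Kif15 and Kif1b called. Called genes of the partner list, Top2a among them, numbered 5, against 3 with library totals only, 2 without the deepest library of each diet, and 0 to 4 when a library was left out. Over all genes 72 were lower, against 168 with no filter, 254 in DESeq2, 126 with GC and length trends removed, and 29 to 73 when a library was left out. Leaving out single libraries moved the mitotic median between -0.47 and -0.36, the transport median between -0.12 and 0.14, and the difference in mitotic share between -4.52 and -3.41 percentage points. The log2 fold change of Kif20a ranged from -0.06 to 0.08 when a library was left out; it turned to -0.04, -0.06 and -0.03 without BCAA-free replicate 3, without standard-diet replicate 2, and without the deepest library of each diet. The causes of these changes were not tested.

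Same-numbered libraries shared only a number: the correlations of their deviations from the group means were -0.0808, -0.0518 and -0.298. With the replicate block 0 kinesins, 0 mitotic and 0 transport among them, 0 of the partner list and 0 of all genes were called lower, and Kif1b had an edgeR adjusted p of 0.0925. Standard-diet replicates 4 and 5 have no BCAA-free library of their number. The block therefore compares only 3 arbitrary pairs with few degrees of freedom, and its lack of calls cannot judge the main fit. In it Kif11, Kif15 and Kif1b had log2 fold changes of -0.59, -0.61 and -0.86. Members with few reads, such as Kif5a and Kif7, are limited by depth.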

Other observations

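Kif26b, a kinesin of developmental signalling without motor transport, fell outside the count limit. It had 8, 6 and 7 reads in the BCAA-free libraries, against 4, 1, 1, 0 and 0 reads in the standard-diet libraries, so that the groups did not overlap at counts too low for a test. It was chosen after its values were seen.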
